A study of Rattus norvegicus with 12 samples.

Results

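The nuclear-encoded subunits of the respiratory chain and ATP synthase were measured in rat liver as 92 probe sets, which stand for 80 genes. They were taken by symbol: every probe set with a single annotated symbol beginning with Nduf, Sdh (Sdha to Sdhd), Uqcr, Cox4 to Cox8 or Atp5. The file holds 29214 probe sets, of which 15310, standing for 14506 genes, have 1 symbol. By complex, 37 probe sets belonged to complex I (33 genes), 4 to complex II (4 genes), 9 to complex III (7 genes), 19 to complex IV (17 genes) and 20 to complex V, the ATP synthase (16 genes). The remaining 3 were the complex I assembly factors Ndufaf1, Ndufaf3 and Ndufaf4. Ndufa4, named for complex I, was placed with complex IV, where later work put its protein. By the RefSeq annotation 89 of the 92 are protein-coding, and the other 3 carry pseudogene symbols (Ndufs6-ps1 with 2 probe sets, and Cox6c-ps1).

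The livers came from 12 male Diet-induced obese Sprague-Dawley rats aged 20 weeks, 4 per diet, with 1 Affymetrix Rat Gene 1.0 ST array per liver. All of them ate a diet rich in fat and sucrose ad libitum for 8 weeks, starting at 12 weeks of age, with 4.6 kcal per gram and 10% of energy as protein. In the leucine diet 7.1% of energy came from casein and 2.9% from free leucine. In the dairy diet the protein was complete dairy (skim milk powder). The casein diet was the control. Added leucine therefore cannot be told apart from less casein, nor dairy protein from the rest of the skim milk. The labels number the replicates but do not say how animals were housed or paired, and the p-values measure the spread between these samples.

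The respiratory chain sits in the inner mitochondrial membrane. Complex I takes electrons from NADH and complex II takes them from succinate, ubiquinone carries them to complex III, and cytochrome c carries them on to complex IV, which reduces oxygen. The proton gradient that complexes I, III and IV build drives ATP synthase. Most subunits are encoded in the nucleus, and hepatocytes, which are rich in mitochondria, depend on the chain for fatty acid oxidation, gluconeogenesis and urea synthesis.

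Promoters of respiratory genes are known for binding sites of nuclear respiratory factor 1 (NRF1), of the ETS family protein GABP, of YY1 and of estrogen-related receptors. RefSeq promoter windows of the GRCr8 assembly, 300 bases from 250 before to 50 after each gene's start, were at hand for 70 of the 80 genes. Both strands were searched. The NRF1 motif, GCGCA and GCGC with any base between them, stood in 14 of the 70 windows (20.0%), against 4.25% of all 33469 rat windows. The ETS motif CCGGAAG stood in 21 (30.0%, against 8.75%), the YY1 motif AAGATGGCG in 8 (11.4%, against 1.73%) and the estrogen-related receptor motif TNAAGGTCA in 3 (4.29%, against 1.2%). No 2 matches to different motifs overlapped in these 70 windows. The comparison took every window and was not matched to the members by gene type, expression or base content. The member windows also had a higher G and C content, with a median of 56.7% against 51.7%, and a match is a description of the letters only. The 120 bases before the start follow for 5 of the members described below, in lower case with motif matches in capitals. Uqcr11 and Cox6a1, also described below, had no window. Ndufs1, Sdhd and Cox7a2 had windows that are not printed. Uqcrq lies at chr10:38089979-38090098 on the minus strand, Atp5po at chr11:44657484-44657603 on the minus strand and Ndufa11 at chr9:1637494-1637613 on the plus strand. Atp5f1c lies at chr17:73333565-73333684 on the plus strand and Cox7a2l at chr6:16936454-16936573 on the plus strand.
Uqcrq: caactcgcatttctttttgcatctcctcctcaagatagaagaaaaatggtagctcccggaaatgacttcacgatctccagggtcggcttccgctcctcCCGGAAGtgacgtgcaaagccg
Atp5po: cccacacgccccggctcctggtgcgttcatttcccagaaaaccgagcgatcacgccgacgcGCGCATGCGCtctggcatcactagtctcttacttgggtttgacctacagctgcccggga
Ndufa11: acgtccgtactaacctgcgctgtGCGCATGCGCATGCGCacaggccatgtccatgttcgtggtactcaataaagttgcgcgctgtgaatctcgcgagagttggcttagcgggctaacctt
Atp5f1c: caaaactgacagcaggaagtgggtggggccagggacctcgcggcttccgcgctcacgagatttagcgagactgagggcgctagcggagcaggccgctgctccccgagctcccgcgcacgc
Cox7a2l: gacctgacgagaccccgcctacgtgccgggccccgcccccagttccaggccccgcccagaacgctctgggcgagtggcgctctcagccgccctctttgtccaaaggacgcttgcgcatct
Uqcrq carries an ETS match, Atp5po an NRF1 match and Ndufa11 a pair of overlapping NRF1 matches. The stretches of Atp5f1c and Cox7a2l hold no match to any of the 4 motifs, although the 300-base window of Atp5f1c has 1 match outside the printed bases.

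The values are array signals on a log2 scale, so equal differences stand for equal ratios of signal. Of the 92 members, 3 (Cox4i2, Cox8c and Cox6c-ps1) were dim, which is used here of a mean signal below 3.58, under which 0.25 of all probe sets with 1 symbol lie. Replicates of a diet differed by a median within-diet SD of 0.299 for the members and 0.295 for all probe sets. The spread of signals over a whole array (its SD) ran between 2.07 and 2.33, and was lowest on the arrays of dairy replicate 3 and casein replicate 4. All 12 hepatocyte marker genes listed for the check were measured and none was dim. In bulk liver RNA, fewer cells of a type and less RNA per cell cannot be told apart.

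**Figure D1:**
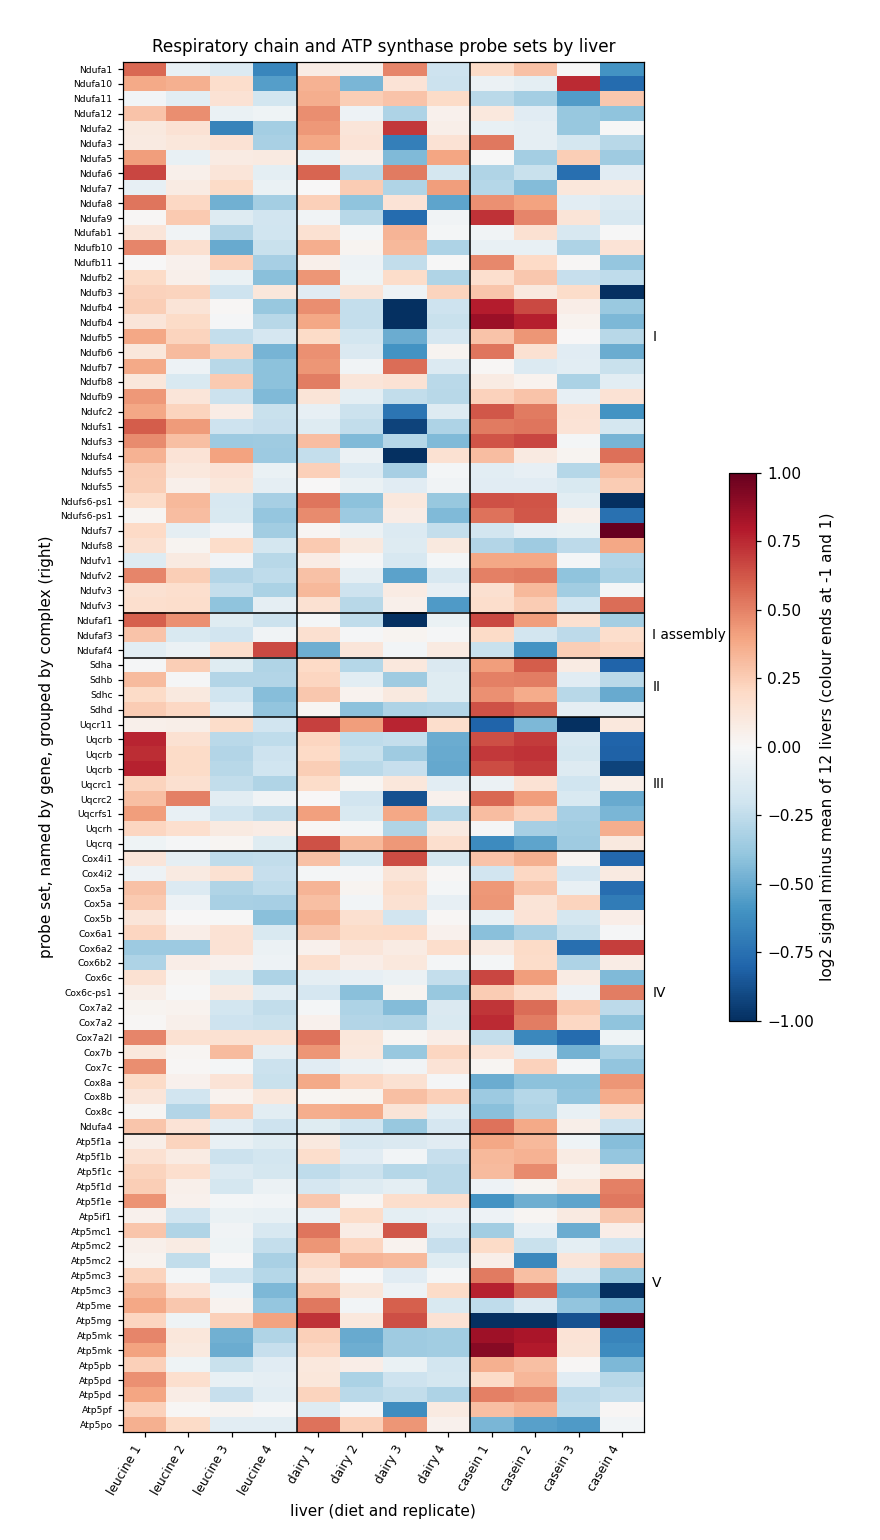
Signal of each of the 92 member probe sets (rows, by complex) in the 12 livers (columns, by diet), as log2 signal minus the mean of the 12 livers; red is above and blue below that mean, and the colour ends at -1 and 1. Uqcr11, Uqcrq and Atp5po are red in the dairy livers and blue in casein replicates 1 to 3. Leucine replicate 1 is red in 83 rows and leucine replicate 4 in 7.

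Dairy against casein gave the most differences among the members, and these ran in both directions. The complex III subunits Uqcr11 (2.07-fold) and Uqcrq (1.67-fold), the ATP synthase subunit Atp5po (1.64-fold) and the complex IV relative Cox7a2l (1.52-fold) had a higher signal in dairy livers. The complex I core subunit Ndufs1 (1.58-fold), the complex II anchor Sdhd (1.42-fold) and the ATP synthase rotor subunit Atp5f1c (1.40-fold) had a lower signal. None of the 92 passed an adjusted p of 0.05 by limma with Benjamini-Hochberg adjustment over the 15310 probe sets, of which 0.0849% passed. At an unadjusted p under 0.05 there were 16 members (17.4%), 9 higher and 7 lower, against 10.9% of all probe sets (4.59% higher and 6.32% lower). The 4 dairy values lay wholly above or below the 4 casein values for 8 members, 6 higher and 2 lower, against 4.27% of all probe sets (2.09% higher and 2.18% lower). The median difference of the members was -0.00054 on the log2 scale, against -0.02 over all probe sets, and it was 0.08 after quantile normalization and 0.04 with array medians centred.

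By complex, the median dairy minus casein difference was -0.02 for complex I, -0.18 for complex II, 0.03 for complex III, 0.10 for complex IV and -0.09 for complex V. Under quantile normalization and centring the sign held for complexes II (-0.10 and -0.14), III (0.14 and 0.06) and IV (0.16 and 0.13), turned for complex I (0.09 and 0.01), and turned for complex V under quantile normalization (0.02) but not with centring (-0.05). The medians also moved with single livers. Without casein replicate 4 they were -0.14 for complex I, -0.39 for complex II and -0.21 for complex V. Complex III turned to -0.06 without casein replicate 3, and to -0.08 without casein replicate 4 and dairy replicate 3 together. When any 1 liver was left out, complex IV stayed above 0, at 0.04 to 0.15. Complexes I (-0.14 to -0.0045), II (-0.39 to -0.03) and V (-0.21 to -3.6e-05) likewise kept their sign, below 0.

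**Figure D2:**
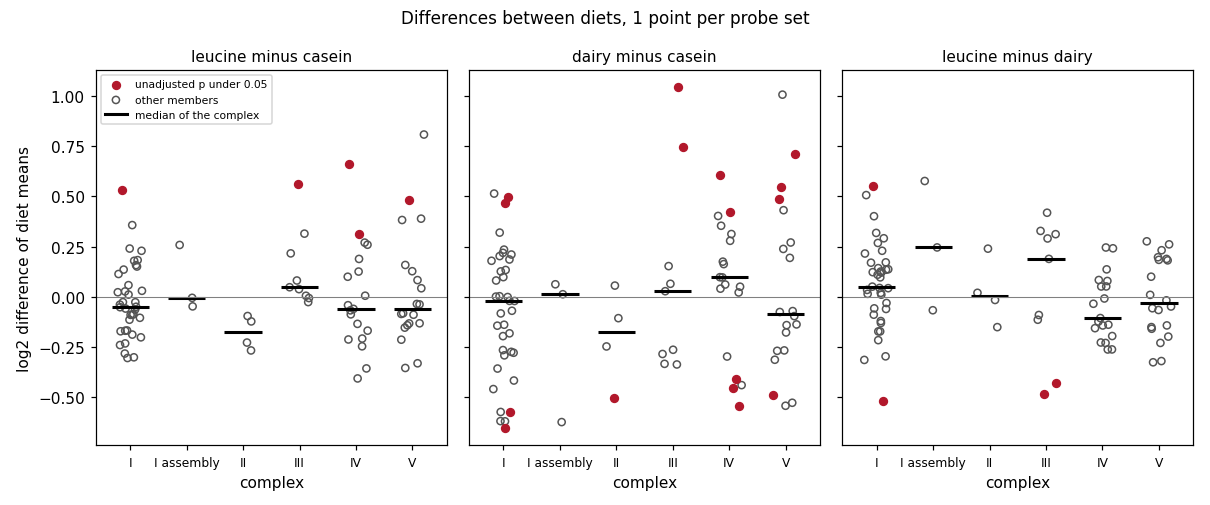
Log2 difference of diet means for each member probe set (points), by complex, for leucine minus casein, dairy minus casein and leucine minus dairy; filled red points have an unadjusted limma p under 0.05 and black lines are medians of the complex. The dairy minus casein panel has the widest scatter, with 16 red points on both sides of 0, and no complex lies as a whole on one side of 0 there.

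In complex III, which passes electrons between ubiquinol and cytochrome c, Uqcr11 and Uqcrq stood apart from the other 5 genes. Uqcr11 encodes a small subunit without a redox centre, and its signal was 10.46, 10.20, 10.54 and 9.95 in dairy livers, against 8.98, 9.33, 8.78 and 9.88 in casein livers. Every dairy value was higher than every casein value, and casein replicate 4 came close to the lowest dairy liver. The difference was 1.05 ± 0.22 (SE), with an unadjusted p of 0.000491 and an adjusted p of 0.112 by limma, the lowest adjusted p of any member. Uqcrq, the small subunit that borders the ubiquinone site, had 10.61, 10.30, 10.41 and 10.15 in dairy livers, against 9.35, 9.45, 9.62 and 10.07 in casein livers. Its groups did not overlap either, and again casein replicate 4 was the highest casein liver. Its difference was 0.74 ± 0.17 (SE; adjusted p = 0.146 by limma). The other members of complex III, which include the core proteins Uqcrc1 and Uqcrc2 and the Rieske iron-sulfur protein Uqcrfs1, differed by between -0.34 and 0.15, none at an unadjusted p under 0.05. The 3 probe sets of Uqcrb gave -0.29, -0.33 and -0.26, so the repeated measurements of this gene lay close together.

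Complex IV, cytochrome c oxidase, had 14 of its 19 probe sets above 0 and 5 below. Cox7a2l, a relative of subunit 7A known for joining complexes III and IV into supercomplexes, had 9.40, 8.97, 8.88 and 8.92 in dairy livers, against 8.62, 8.21, 8.09 and 8.82 in casein livers. The groups did not overlap, although casein replicate 4 lay just under the lowest dairy liver, and the difference was 0.61 ± 0.19 (SE; adjusted p = 0.310). Cox6a1, the subunit 6A isoform of liver and other non-muscle tissue, had 10.98, 10.90, 10.90 and 10.74 in dairy livers, against 10.28, 10.38, 10.48 and 10.69 in casein livers. That was a difference of 0.42 ± 0.14 (SE; adjusted p = 0.316), again without overlap. Going the other way, Cox7a2, the 7A isoform of non-muscle tissue, had 9.71, 9.42, 9.29 and 9.58 in dairy livers, against 10.44, 10.28, 9.99 and 9.46 in casein livers on the probe set with the larger difference. Casein replicate 4 fell within the dairy range there, and the difference was -0.54 ± 0.20 (SE; adjusted p = 0.365), with -0.44 ± 0.21 on the other probe set. Ndufa4 had 11.41, 11.33, 11.15 and 11.36 in dairy livers, against 12.08, 11.91, 11.59 and 11.32 in casein livers, a difference of -0.41 ± 0.18. Its highest dairy value lay under 3 of the 4 casein values. The pseudogene Cox6c-ps1 (-0.45 ± 0.15) was dim, and log2 signals are compressed there.

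Complex IV has isoforms known mainly from muscle, lung or testis. Cox4i2, Cox6a2, Cox6b2, Cox8b and Cox8c averaged between 3.48 and 4.60 over the 12 livers, with Cox4i2 and Cox8c dim. Their dairy minus casein differences lay between 0.04 and 0.35, none at an unadjusted p under 0.05. Of the 14 listed skeletal and cardiac muscle markers 13 were measured, 5 of them dim. The log2 of their summed signal was 7.74 to 8.03 in dairy livers and 7.44 to 7.87 in casein livers, and its part in the isoform values was not tested.

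In ATP synthase, 8 probe sets lay above 0 and 12 below, and no test compared the parts of the enzyme. The peripheral stalk had 4 of its 5 probe sets below 0, with a median of -0.18, and Atp5po was its exception. Atp5po, the subunit that ties the catalytic head to the peripheral stalk, had 9.61, 9.30, 9.51 and 9.11 in dairy livers, against 8.61, 8.53, 8.50 and 9.04 in casein livers. No dairy value lay below a casein value, and casein replicate 4 was again the nearest, with a difference of 0.71 ± 0.17 (SE; adjusted p = 0.193 by limma). Atp5f1c, the gamma subunit whose rotation drives catalysis, had 6.35, 6.39, 6.32 and 6.33 in dairy livers, against 6.92, 7.08, 6.64 and 6.71 in casein livers. The dairy livers were all lower and nearly identical, with a difference of -0.49 ± 0.14 (SE; adjusted p = 0.295). Atp5f1d, the delta subunit beside it in the central stalk, was also lower without overlap, at 9.96 to 10.12 in dairy livers and 10.17 to 10.73 in casein livers. Its difference of -0.31 ± 0.15 had an unadjusted p of 0.0574. The catalytic-head subunits alpha (Atp5f1a) and beta (Atp5f1b) differed by -0.14 each. Atp5f1e, the epsilon subunit of the central stalk, lay on the other side of 0, at 0.43 ± 0.23.

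In the membrane part of ATP synthase, differences ran both ways. The c ring, the rotor in the membrane, is encoded by 3 genes for the same mature protein, and 4 of its 5 probe sets were above 0, with a median of 0.24. One of the 4, for Atp5mc3 (0.27), was at -0.15 without casein replicate 4. Atp5mc1 had 9.16, 8.70, 9.24 and 8.48 in dairy livers, against 8.28, 8.54, 8.13 and 8.69 in casein livers, overlapping groups with a difference of 0.49 ± 0.20. Atp5me, the e subunit known for holding ATP synthase dimers together, had 7.86, 7.31, 7.93 and 7.19 in dairy livers, against 7.08, 7.20, 6.94 and 6.87 in casein livers (0.55 ± 0.21). Only 1 dairy value lay under the highest casein value there. Atp5mg, the g subunit found beside it, had the second largest difference of all members, 1.01 ± 0.50, but its casein values were 5.81, 5.40, 6.21 and 8.47. Casein replicate 4 lay above all 4 dairy livers, which had 7.80, 7.18, 7.72 and 7.22. Both probe sets of Atp5mk were at -0.53 and -0.54, and the inhibitor Atp5if1, which blocks the enzyme from running backwards, differed by -0.10 ± 0.13.

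Complex I had as many members at an unadjusted p under 0.05 upwards as downwards, 2 each of 37. The core subunits, which carry the flavin, the iron-sulfur clusters or the quinone site, had a median of -0.24 over 6 probe sets, 5 of them below 0, against -0.0016 over the 31 probe sets of accessory subunits. Ndufs1, the largest core subunit and a carrier of iron-sulfur clusters, had 8.78, 8.67, 7.98 and 8.60 in dairy livers, against 9.42, 9.44, 9.05 and 8.74 in casein livers. Only dairy replicate 1 exceeded the lowest casein value, and the difference was -0.66 ± 0.25 (SE; adjusted p = 0.379). Of the other core subunits, Ndufs3, Ndufs7, Ndufv1 and Ndufv2 differed by -0.42, -0.27, -0.14 and -0.20, and Ndufs8 by 0.21, none at an unadjusted p under 0.05. Ndufs7 and Ndufs8 each had casein replicate 4 far above the other 3 casein livers.

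Among the accessory subunits, Ndufa9, which sits where the matrix arm meets the membrane arm, had 8.69, 8.45, 7.96 and 8.69 in dairy livers, against 9.45, 9.22, 8.85 and 8.57 in casein livers. All but the lowest casein liver exceeded the dairy livers, and the difference was -0.57 ± 0.22. Ndufa11, a subunit of the membrane arm, had 9.89, 9.77, 9.81 and 9.72 in dairy livers, against 9.26, 9.19, 8.97 and 9.79 in casein livers (0.50 ± 0.17; adjusted p = 0.334). Casein replicate 4 alone reached the dairy range. Ndufa2, a small subunit of the matrix arm, had 6.19, 5.87, 6.46 and 5.81 in dairy livers, against 5.68, 5.66, 5.37 and 5.74 in casein livers, with no overlap and a difference of 0.47 ± 0.21. The 3 assembly factors gave no unadjusted p under 0.05, with -0.63 ± 0.31 for Ndufaf1, 0.06 ± 0.15 for Ndufaf3 and 0.01 ± 0.23 for Ndufaf4.

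Complex II, succinate dehydrogenase, also serves the tricarboxylic acid cycle. Its membrane anchor Sdhd had 9.28, 8.85, 8.96 and 8.97 in dairy livers, against 9.90, 9.85, 9.18 and 9.17 in casein livers, and only dairy replicate 1 lay above any casein value (-0.51 ± 0.21; adjusted p = 0.428). The flavoprotein Sdha differed by -0.11 ± 0.26, the iron-sulfur protein Sdhb by -0.25 ± 0.22 and the other anchor Sdhc by 0.06 ± 0.22.

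**Figure D3:**
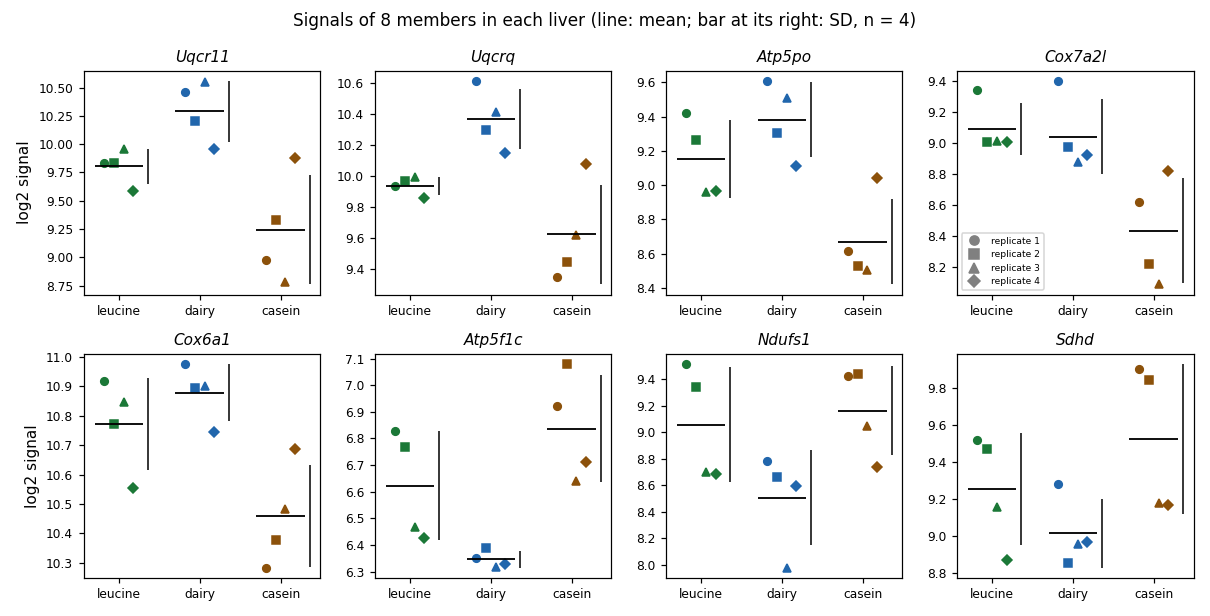
Log2 signal of 8 members in each liver (1 point per liver, the marker shape gives the replicate), with diet mean (line) and SD (bar, n = 4). For Uqcr11, Uqcrq, Atp5po, Cox7a2l and Cox6a1 the casein liver nearest to the dairy livers is replicate 4 (brown diamond), and for Atp5f1c the 4 dairy livers lie between 6.32 and 6.39.

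Leaving out casein replicate 4, whose array was among the 2 of narrowest spread, changed the dairy against casein counts more than leaving out any other liver. Without it, 7 members passed the adjusted threshold for dairy against casein, among 237 of all probe sets, and 31 stood at an unadjusted p under 0.05, with 15 higher in dairy and 16 lower (21.2% of all probe sets did). The 7 were Uqcrq, Atp5po, Cox7a2, Atp5f1e, Uqcr11, Atp5mg and Ndufa11. Uqcr11 then differed by 1.26 (adjusted p = 0.0149), Uqcrq by 0.89 (adjusted p = 0.0175) and Atp5po by 0.83 (adjusted p = 0.0370). Ndufa11 differed by 0.66 (adjusted p = 0.0370) and Cox7a2 by -0.74 (adjusted p = 0.0453). With any other liver left out alone, none passed. Without dairy replicate 3 alone, the other narrow array, 10 had an unadjusted p under 0.05 (7.93% of all). Without both, Uqcrq, Uqcr11 and Atp5mg passed, among 164 of all probe sets, and 28 members had an unadjusted p under 0.05 (17.4% of all).

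Of the marker sums for other cells, the erythroid one separated the dairy and casein livers. Of 12 listed erythroid genes 7 were measured, 1 of them dim. The log2 of their summed signal was 11.2 to 11.6 in dairy livers, against 9.90 to 10.7 in casein livers, with no overlap. The brightest genes weigh most in such a sum, and the median dairy minus casein difference of the 7 genes was 0.11. Only 1 of the 7 had an unadjusted p under 0.05 and none passed adjustment. The sum of the 12 hepatocyte markers was 15.9 to 16.4 in dairy livers and 16.2 to 16.6 in casein livers. Of these 12 genes, 3 had an unadjusted p under 0.05, against 10.9% of all probe sets, and none passed adjustment. Their median dairy minus casein difference was -0.16. For the 12 neutrophil markers, 1 of them dim, the sum was 7.51 to 9.91 in dairy livers and 7.25 to 9.22 in casein livers. Of these, 1 had an unadjusted p under 0.05, and the median difference was 0.43. The hepatocyte and neutrophil sums both overlapped. The part of these cells in the members' differences was not tested.

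Leucine against casein gave fewer differences among the members, and in the fit of all 12 livers those at an unadjusted p under 0.05 were higher in leucine livers. They were Cox7a2l, Atp5po, Uqcr11, Cox6a1 and Ndufa6, 5 of 92 (5.43%), against 3.31% of all probe sets (1.39% higher and 1.92% lower). None of the 92, and 0% of all probe sets, passed the adjusted threshold, and the lowest adjusted p of a member was 0.999. Only Cox7a2l and Ndufa6 had leucine values wholly above the casein values, against 2.44% of all probe sets without overlap (1.06% higher and 1.38% lower). The median difference was -0.04 over the members and -0.03 over all probe sets, and it was -0.02 after quantile normalization and 0.02 with array medians centred. The single direction did not hold under every setting. At an unadjusted p under 0.05, 2 members were higher and 1 lower after quantile normalization, as without casein replicate 3, 4 higher and 1 lower with the replicate number as a block, and 14 each way with array quality weights. Without casein replicate 4, 13 were higher and 7 lower. The erythroid sum was 10.5 to 12.7 in leucine livers and 9.90 to 10.7 in casein livers, and its part was not tested. The casein livers are shared with the dairy comparison, so the values of both are given side by side and are not independent.

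Cox7a2l had 9.35, 9.01, 9.01 and 9.01 in leucine livers, against 8.62, 8.21, 8.09 and 8.82 in casein livers, a difference of 0.66 ± 0.19 (SE; unadjusted p = 0.00405). The leucine livers lay close to the dairy livers for this gene. Atp5po had 9.42, 9.26, 8.96 and 8.96 in leucine livers (0.48 ± 0.17 over casein), and casein replicate 4 overlapped them. Uqcr11 had 9.83, 9.84, 9.96 and 9.59 in leucine livers, a difference of 0.56 ± 0.22, and casein replicate 4 lay within their range. Cox6a1 had 10.92, 10.77, 10.85 and 10.55 in leucine livers, and its difference was 0.31 ± 0.14. Ndufa6, an accessory subunit of the LYR motif family, had 8.81, 8.20, 8.26 and 8.05 in leucine livers, against 7.84, 7.93, 7.39 and 8.03 in casein livers, a difference of 0.53 ± 0.24. Its lowest leucine liver and highest casein liver were separated by less than the spread within either diet.

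By complex, the median leucine minus casein difference was -0.05 for complex I, -0.18 for complex II, 0.05 for complex III, -0.06 for complex IV and -0.06 for complex V. With array medians centred it turned positive for complexes I (0.0134), IV (0.0029) and V (0.0030), while after quantile normalization it kept its sign in these 3. With 1 liver left out it reached either side of 0 in every complex but II, from -0.15 to 0.07 in complex I, -0.11 to 0.22 in III, -0.13 to 0.04 in IV and -0.12 to 0.04 in V. Complex II stayed below 0, at -0.38 to -0.04, lowest without casein replicate 4. All 4 Sdh probe sets were below 0, by -0.10 to -0.27, none at an unadjusted p under 0.05. The Cox7a2 probe sets were at -0.41 ± 0.20 and -0.36 ± 0.21. Without casein replicate 4 the members at an unadjusted p under 0.05 numbered 20 (13 higher, 7 lower), against 8.87% of all probe sets, and none passed the adjusted threshold.

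Leucine against dairy separated 4 members at an unadjusted p under 0.05 (4.35%), against 6.95% of all probe sets (3.65% higher and 3.3% lower), and none after adjustment (0% of all). Ndufs1 was higher in leucine livers, at 9.51, 9.34, 8.70 and 8.68, against 8.78, 8.67, 7.98 and 8.60 in dairy livers (0.55 ± 0.25). Uqcrq was lower, at 9.94, 9.96, 9.99 and 9.86 in leucine livers, against 10.61, 10.30, 10.41 and 10.15 in dairy livers. Its groups did not overlap, and its 4 leucine livers lay between the means of the dairy and casein livers (-0.43 ± 0.17; adjusted p = 0.676, the lowest of the members). Ndufa2 (-0.52 ± 0.21) and Uqcr11 (-0.49 ± 0.22) were lower with overlap. Ndufa11 was lower in leucine livers and Atp5f1c higher, both without overlap, at differences of -0.32 and 0.28. Groups of 4 that did not overlap made up 3 of the 92 members and 5.09% of all probe sets (2.04% higher and 3.04% lower). The median difference was 0.02 over the members, against -0.01 over all probe sets, and -0.07 after quantile normalization. Over the 3 diets, the moderated F test gave 11 members an unadjusted p under 0.05, against 7.76% of all probe sets, and none passed adjustment (0.0327% of all).

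The livers of a diet differed more in the members than the diets did. In leucine livers 83, 67, 33 and 7 of the 92 members lay above their 12-liver mean, in dairy livers 74, 34, 41 and 28, and in casein livers 60, 60, 30 and 32. Over all 15310 probe sets the count lay between 6753 and 8032 in every liver, so leucine replicate 1 and leucine replicate 4 were the extremes for the members without being extremes over all probe sets. The median deviation of the members was 0.22, 0.08, -0.08 and -0.22 in the leucine livers, 0.21, -0.05, -0.06 and -0.12 in the dairy livers, and 0.21, 0.21, -0.11 and -0.22 in the casein livers. In each diet this median deviation was highest in replicate 1 and lowest in replicate 4. The labels do not say what a replicate number shares, and its part in this level was not tested. Averaged by diet, the median deviation was 0.0018 ± 0.19 in leucine, -0.0027 ± 0.15 in dairy and 0.02 ± 0.22 in casein livers (SD, n = 4 each). The diet means of this level thus differed by far less than the livers of a diet. Members that differ in opposite directions cancel in such a median, and for dairy minus casein 46 lay above 0 and 46 below.

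Neutrophil markers varied between the same livers. The log2 of the summed signal of the 12 markers was 7.26, 7.74, 9.60 and 8.81 in the leucine livers, 7.51, 9.32, 7.91 and 9.91 in the dairy livers, and 7.25, 7.35, 9.22 and 7.98 in the casein livers. In each diet the livers with the most members above their mean had the lowest neutrophil sum. The pattern was not particular to neutrophils, as the same livers also had the lowest sum of adipocyte markers. Of 8 listed adipocyte genes 7 were measured, 1 of them dim. Their sum was 9.02, 9.64, 10.32 and 10.10 in the leucine livers, 8.67, 9.96, 9.10 and 10.08 in the dairy livers, and 9.25, 8.82, 9.88 and 9.82 in the casein livers. The hepatocyte sum went the other way, and in each diet was highest in the livers with the most members above their mean. It was 16.44, 16.36, 16.12 and 16.22 in the leucine livers, 16.36, 16.12, 15.92 and 16.19 in the dairy livers, and 16.49, 16.56, 16.21 and 16.25 in the casein livers. The part of any of these cells in the members' levels was not tested.

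**Figure D4:**
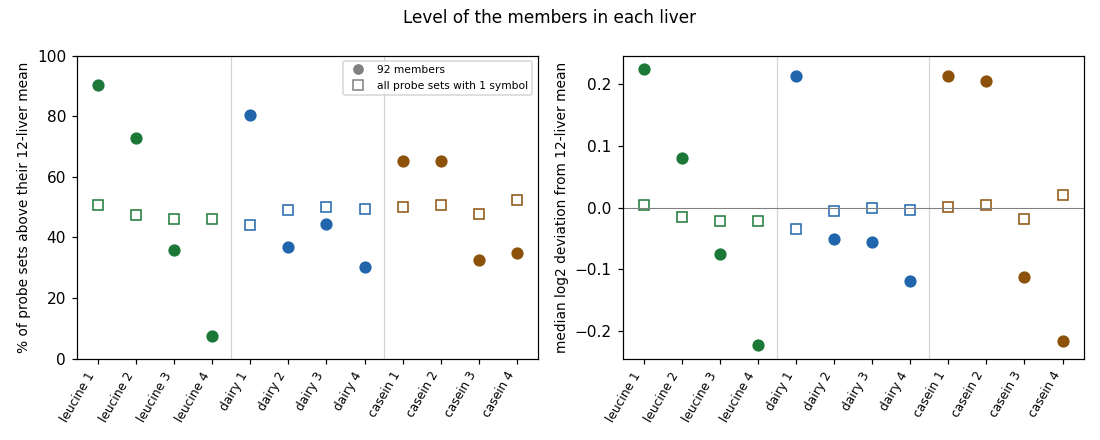
Level of the members in each liver. Left, percent of probe sets above their own 12-liver mean, for the 92 members (filled circles) and all probe sets with 1 symbol (open squares); right, the median log2 deviation from that mean. Members above their mean number 83 in leucine replicate 1 and 7 in leucine replicate 4, while all probe sets stay near the middle in every liver.

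Genes that feed, build or regulate the chain were taken from separate lists, and most of their probe sets lay below 0 for dairy minus casein. Over all probe sets 8137 of 15310 did so, and 4.59% were higher and 6.32% lower at an unadjusted p under 0.05 (10.9% in all). Of 17 probe sets (14 genes) of the tricarboxylic acid cycle and pyruvate dehydrogenase, 13 did so, 6 of them and 1 of the positive ones at an unadjusted p under 0.05, with a median of -0.54. Pdhx, a structural component of pyruvate dehydrogenase, had 6.76, 6.98, 6.57 and 6.93 in dairy livers, against 7.50, 7.50, 7.48 and 7.18 in casein livers, with no overlap (-0.61 ± 0.14; adjusted p = 0.148). Idh3a, the catalytic subunit of NAD-dependent isocitrate dehydrogenase, was lower without overlap too (-0.71 ± 0.17; adjusted p = 0.193). Both passed without casein replicate 4, with adjusted p of 0.0370 for Pdhx and 0.0418 for Idh3a. Cs, citrate synthase, was at 0.37 ± 0.15 and 0.09 ± 0.19 on its 2 probe sets. Of 9 probe sets for other enzymes that pass electrons to ubiquinone, 2 were lower and none higher at that p. Prodh, proline dehydrogenase, had 9.05, 8.02, 8.86 and 8.13 in dairy livers, against 10.16, 9.62, 9.53 and 10.20 in casein livers (-1.36 ± 0.29; adjusted p = 0.112). Its leucine livers (9.87, 10.40, 9.54 and 9.30) lay with the casein livers, and leucine minus dairy was 1.26 (adjusted p = 0.604).

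Of 18 regulators of mitochondrial biogenesis and mitochondrial DNA expression, 14 lay below 0 for dairy minus casein, 3 at an unadjusted p under 0.05, with a median of -0.43. The coactivator Ppargc1a had 3.80, 3.48, 3.78 and 4.07 in dairy livers, against 4.32, 4.47, 5.93 and 4.81 in casein livers, lower without overlap (-1.10 ± 0.33; adjusted p = 0.295). The dairy values lay near the dim limit of 3.58, and casein replicate 3 stood well above the other casein livers. Esrra, the partner receptor of Ppargc1a, was at 0.18 ± 0.17, and the mitochondrial DNA factor Tfam at -0.51 ± 0.30. The factors Nrf1 and Gabpa, which bind the NRF1 and ETS motifs, were at -0.37 ± 0.20 and -0.51 ± 0.27. Dairy replicate 3 had the lowest value of Nrf1, Gabpa and Tfam among the 12 livers. Of 40 probe sets for assembly factors outside the member symbols, 3 were higher and 2 lower at that p (median -0.19). Uqcc2, an assembly factor of complex III, was higher in dairy livers without overlap on both probe sets (0.70 ± 0.17 and 0.59 ± 0.15; adjusted p = 0.189 and 0.224).

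The remaining lists had few members at an unadjusted p under 0.05 for dairy against casein. These were 1 lower of 12 for ubiquinone synthesis (median -0.18), 1 higher and 1 lower of 12 for ADP, phosphate and proton carriers (-0.18), and 2 lower of 13 for cristae and cardiolipin (-0.29). The higher carrier was Ucp2, an uncoupling protein homologue (0.62 ± 0.23, without overlap). Both probe sets of cytochrome c (Cycs) were at -0.50 ± 0.26 and -0.48 ± 0.27. Dairy replicate 3 had the lowest value of the 12 livers on both, and without it the differences were -0.25 and -0.23. None of these lists held a probe set past the adjusted threshold in any of the 3 comparisons. For leucine against casein the assembly factors outside the member symbols held 2 lower members at an unadjusted p under 0.05, Uqcc3 (-0.85 ± 0.26) and the copper chaperone Cox17 (-0.38 ± 0.14), and ubiquinone synthesis held 1, Coq7 (-0.52 ± 0.20). The mitochondrially encoded subunits and Cyc1 were not analysed here.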

How the data were processed

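Liver RNA of 12 rats was hybridised to 1 array each. The deposited values are log2 signals per probe set, which the authors produced in Expression Console of Affymetrix, per the submitters' processing notes. Version, summarisation and normalization are not given in the sources used, and the columns do not share 1 distribution. No depth applies to arrays, and their number limits the precision. By the platform annotation, 15310 probe sets had 1 symbol, 323 several and 13581 none.

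Samples were grouped by the diet in their labels. The 3 diet means were fitted over all 12 arrays with limma 3.58.1 (lmFit and eBayes, R 4.3.3), which was tested on simulated data. Two-sided p-values were adjusted over these 15310 by Benjamini-Hochberg and called under 0.05. Differences are given ± SE and are not fold changes of RNA near the background, where array signals compress them. "Without overlap" means that all 4 values of a diet lie above or below the 4 of the other.

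The labels do not say what a replicate number shares. Over all probe sets, the deviations of same-numbered livers correlated above 0.1 in all 4 pairs of leucine and casein livers (0.21 to 0.53). Over the 3 diets, 7 of 12 pairs did so (-0.51 to 0.59). Over the members alone, the leucine and casein pairs had 0.35, 0.55, 0.06 and 0.47, and the 12 pairs ran between -0.23 and 0.55. Pairing is therefore unknown, and the number was used as a block only in an alternative.

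The members and lists were chosen with earlier results of these data known. Complex I core subunits and the parts of ATP synthase were grouped by textbook role. Named were the members with the most extreme moderated t per complex and comparison, and those without overlap whose unadjusted p was the lowest of their complex. Also named were the Sdh and core subunits, the tissue isoforms, and up to 2 genes per other list and comparison plus Ppargc1a, Esrra, Tfam, Cycs and Cs. Other genes were added from the members at an unadjusted p under 0.05 after their values were seen. Alternatives were quantile normalization, centring, all probe sets, no dim probe sets (mean under 3.58), 1 probe set per gene, trend and robust eBayes, array weights, 8 arrays only, the replicate block, leaving out each array, and, chosen after seeing the data, leaving out both arrays of narrowest spread. Promoter windows are RefSeq's (GRCr8).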

Additional observations from a re-analysis of the deposited data

Results flagged for a closer look

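Of 285 groups of 4 livers examined for a liver far from its group by Dixon's criterion (0.829), 17 had one, and chance gives about 1 group in 20. Among the members, 4 were casein replicate 4: Ndufs7 at 9.98 (the other 3 casein livers at 8.78 to 8.90), Ndufs8 at 9.14 (8.39 to 8.49), Cox8a at 10.97 (10.03 to 10.12) and the muscle isoform Cox8b at 4.13 (3.36 to 3.47). The others were Cox7a2l at 9.35 in leucine replicate 1 (9.01 in the other 3 leucine livers) and Atp5if1 at 8.73 in dairy replicate 2 (8.45 to 8.49). The median deviation of the complex I assembly factors was -0.18 in casein replicate 2, against 0.16 to 0.19 in the other casein livers.

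Outside the members, dairy replicate 3 was low for Tfam (5.80, others 6.67 to 6.78), Nrf1 (5.13, others 5.93 to 5.97), Vdac2 (2.26, others 2.83 to 2.87) and Cs (7.36, others 7.88 to 7.96). In leucine replicate 1, Pdhx was 7.28 (7.07 to 7.08), Micos10 9.54 (8.90 to 8.98) and Cs 7.55 (7.61 to 7.63). In leucine replicate 2, Vdac1 was 9.29 (8.76 to 8.83). Pdhx was 7.18 in casein replicate 4 (7.48 to 7.50), and Tafazzin 6.86 in dairy replicate 1 (6.43 to 6.49).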

How the results depend on the processing

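With 4 livers per diet a p over the threshold does not show that diets acted alike. Array quality weights gave 21 members past the adjusted threshold for dairy against casein (of 1182 probe sets in all), against 0, and 7 for any diet. They gave 46 members at an unadjusted p under 0.05 for dairy against casein (14 higher, 32 lower), against 29.3% of all probe sets, and 28 for leucine against casein (14 each way), against 12.9%. The median dairy minus casein difference was then -0.22 over the members, -0.0057 over all probe sets and -0.50 for complex II. Without both arrays of narrowest spread the counts were 3 past the adjusted threshold for dairy against casein, and, at an unadjusted p under 0.05, 28 for dairy (17.4% of all probe sets) and 22 for leucine against casein (13 higher, 9 lower; 11.9% of all). For leucine against casein that count was 5, and 3 under quantile normalization, without dim probe sets and with trend and robust eBayes. For leucine against dairy it was 4, and 2 without dim probe sets and with trend and robust eBayes. The cause was not tested.

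Leaving out 1 liver at a time gave 0 to 7 members past the adjusted threshold for dairy against casein and 0 to 1 for any diet. At an unadjusted p under 0.05 it gave 10 to 31 for dairy against casein, 1 to 20 for leucine against casein and 1 to 5 for leucine against dairy. The highest counts of dairy and leucine against casein came without casein replicate 4. The lowest came without dairy replicate 3 and casein replicates 1 and 2 for dairy, and without leucine replicate 1 for leucine. The median of the 3 complex I assembly factors ran between -0.16 and 0.11 for dairy minus casein (lowest without casein replicate 2) and between 0.0806 and 0.34 for leucine minus dairy (lowest without leucine replicate 4). Ndufs7 ran between -0.39 and 0.0079 for dairy minus casein and between -0.36 and 0.042 for leucine minus casein, and turned positive without casein replicate 4, and also without both narrow arrays (0.0203 and 0.0418). Ppargc1a ran between -0.53 and 0.0102 for leucine minus casein, highest without casein replicate 3.

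With the replicate number as a block, 0 members passed. At an unadjusted p under 0.05 there were 20 for dairy against casein (7 higher, 13 lower; 11.8% of all probe sets), 5 for leucine against casein (4 higher, 1 lower; 3.86%) and 4 for leucine against dairy (2 each way; 7.75%). Over 264 differences of named genes and 22 alternatives, 39 values passed the adjusted threshold that had not, and 198 sign changes concerned differences smaller than their SE.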
